A study of Rattus norvegicus with 10 samples.

Results

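The TREM2, complement and phagocytic genes of microglia were followed in the rat spinal cord as 10 genes: Trem2, Tyrobp, C1qa, C1qb, C1qc, C3, Cd68, Ctss, Laptm5 and Aif1. The genes were chosen by name, and an mRNA probe of the array was taken as theirs when its RefSeq accession belongs to the gene. They were 10 of the 13888 genes with an mRNA probe. Each of the 10 genes had 1 probe, printed as 1 spot, which was well above background on 10 of 10 arrays, with 0 spots marked as outliers and 0 saturated, so that all 10 genes were tested. In the MT group 9 of the 10 were lower than in the NS group and only Laptm5 was higher. Trem2, lower by 1.65-fold, and C3, lower by 1.56-fold, were the only members in which no MT rat reached the lowest NS rat, and no member had an adjusted p below 0.05.

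All 10 rats were male Sprague Dawley rats of 240 to 260 g whose age the labels do not give, and all were injected intrathecally 2 times a day for 7 days. The 5 rats of the morphine tolerance (MT) group, numbered 1 to 5, received 10 μg of morphine in 10 μl at each injection. The 5 rats of the normal saline (NS) group, numbered 6 to 10, received 10 μl of saline. Per the methods, the lumbar enlargement, which serves the hindlimbs, was collected soon after 1 more injection, so the MT rats carried both repeated and recent morphine, and total RNA of the tissue was hybridized to 1 one-colour array per rat. There was no group with a single morphine dose and no group withdrawn from morphine. Each array is a separate rat, not a repeat of 1 sample.

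Microglia are the resident macrophages of the central nervous system. TREM2 is a surface receptor for lipids, lipoproteins and cell debris that has no signalling domain of its own and signals through the adaptor TYROBP, also called DAP12, to the kinase SYK, which favours survival and engulfment. C1q, built from the chains encoded by C1qa, C1qb and C1qc, starts the classical complement pathway, which converges on the cleavage of C3, and the fragments of C3 mark synapses, debris and microbes for uptake by phagocytes. CD68 and LAPTM5 are proteins of the lysosomal membrane, CTSS (cathepsin S) is a protease of lysosomes that is also secreted by spinal microglia, and AIF1, or IBA1, is the actin-binding protein most often stained to show microglia. Spinal microglia are widely studied in opioid tolerance and chronic pain.

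The values are log2 intensities after quantile normalization, and a difference is given as MT minus NS on that scale. Of the 20284 RNAs tested, 13373 were mRNA transcripts. On 8 of the arrays 77.4% to 83.9% of the spots were well above background, and on the arrays of NS rats 8 and 9 the shares were 63.8% and 58.6%. Arrays that share a scan time were taken as 1 slide: slide 1 held MT rats 1, 3, 4 and 5, slide 2 held MT rat 2 with NS rats 6, 7 and 10, and slide 3 held NS rats 8 and 9. Since slide 2 was the only one with both groups, most of the difference between the groups was also a difference between slides, and values within slide 2 are given for the members, and for other genes where they move by over 1.5 times or end a call. Markers of oligodendrocytes, neurons and astrocytes were measured on every array, and of 8 lumbar Hox genes, which mark the level of the cord, 2 were tested. MT rat 3 was the lowest rat for both Hox genes, and stood far apart only for Hoxa11. Hoxa11 read 4.41 in it, against 10.03 to 11.21 in the other MT rats and 8.09 to 11.15 in NS. Hoxd10 read 10.27 in it, against 10.83 to 12.13 in the other 9 rats. NS rats 7, 9 and 10 were the lowest of the others for Hoxa11, at 8.10, 8.35 and 8.09. Values without MT rat 3 are therefore given as well, and the part of cord level in the differences was not tested. Because the RNA came from whole tissue, fewer microglia and less of an RNA per microglial cell cannot be told apart in any value below.

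The sequences just upstream of Trem2, C3, C1qa and Laptm5 are shown first, since the first 3 were the members that differed most between the groups and Laptm5 was the one with a higher mean in MT. Each is the 250 bases before the start that the RefSeq promoter table of the rat genome build GRCr8 uses, written 5′ to 3′ on the strand of the gene, with capitals marking the letters GAGGAA or its reverse complement TTCCTC, the core bound by the myeloid factor PU.1. The Trem2 sequence lies at chr9:20151780-20152029 on the minus strand, C3 at chr9:2201340-2201589 on the minus strand, C1qa at chr5:154419934-154420183 on the minus strand and Laptm5 at chr5:148371630-148371879 on the plus strand.
Trem2: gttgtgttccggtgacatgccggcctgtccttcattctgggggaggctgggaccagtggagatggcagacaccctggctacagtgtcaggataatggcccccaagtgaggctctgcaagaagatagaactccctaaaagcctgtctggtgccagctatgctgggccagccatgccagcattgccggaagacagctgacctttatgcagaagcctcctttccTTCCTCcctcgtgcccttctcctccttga
C3: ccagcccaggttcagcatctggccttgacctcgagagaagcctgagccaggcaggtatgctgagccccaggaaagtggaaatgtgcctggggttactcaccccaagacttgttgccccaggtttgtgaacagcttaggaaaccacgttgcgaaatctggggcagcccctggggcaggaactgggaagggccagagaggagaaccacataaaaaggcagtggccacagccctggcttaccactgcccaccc
C1qa: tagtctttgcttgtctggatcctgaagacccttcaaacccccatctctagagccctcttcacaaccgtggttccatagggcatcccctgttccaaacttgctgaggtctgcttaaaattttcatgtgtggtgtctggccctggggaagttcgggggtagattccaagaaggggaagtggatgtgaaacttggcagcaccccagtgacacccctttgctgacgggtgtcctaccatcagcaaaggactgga
Laptm5: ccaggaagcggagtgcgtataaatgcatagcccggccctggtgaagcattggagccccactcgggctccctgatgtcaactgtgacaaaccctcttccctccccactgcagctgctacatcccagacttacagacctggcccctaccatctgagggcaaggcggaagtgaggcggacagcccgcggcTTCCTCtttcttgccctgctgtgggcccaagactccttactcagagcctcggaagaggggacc
Of the 10 genes 7 have an entry in that table, and the letters occurred in 5 of these 7 (Trem2, C1qb, Cd68, Ctss and Laptm5), searched on both strands. Of all 33469 promoters of the same length 23.3% hold them. That start lies 18 bases inside the outer end of the gene for Trem2 and 80 bases inside it for Ctss, and it is the outer end for the other 5. Counted from the start in the table, a match began 29 bases upstream in Trem2, 27 in Cd68, 15 in Ctss and 63 in Laptm5. Tyrobp, C1qc and Aif1 have no entry. A match of 6 letters describes the sequence only.

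The receptor and its adaptor were both lower in the MT group, Trem2 without overlap and Tyrobp with it. Trem2, on chromosome 9 (20145215 to 20151797, GRCr8), read 11.99, 11.88, 11.87, 12.02 and 11.998 in MT rats 1 to 5 and 12.53, 12.72, 12.97, 12.89 and 12.26 in NS rats 6 to 10. The 5 MT rats lay within a narrow band and all below the lowest NS rat, rat 10, while the NS rats were spread more widely. The means were 11.95 ± 0.07 (SD, n = 5) in MT and 12.67 ± 0.29 in NS (SD, n = 5). MT minus NS was -0.72 (limma standard error 0.13, adjusted p = 0.0634), and the two-sided exact permutation test gave p = 0.00794, the smallest that 5 against 5 rats can give.

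Tyrobp, on chromosome 1 (94800372 to 94804307), read 14.07, 14.01, 14.38, 13.76 and 13.83 in the MT rats and 14.24, 14.60, 14.63, 14.53 and 14.17 in the NS rats. MT rat 3 lay above NS rats 6 and 10, and the other 4 MT rats lay below every NS rat. The group means of the adaptor differed by -0.43 (standard error 0.14, adjusted p = 0.190, exact permutation p = 0.0317). Within each array, log2 Trem2 minus log2 Tyrobp was -2.06 ± 0.30 in MT and -1.76 ± 0.13 in NS (SD, n = 5 each), and the groups overlapped, so that a larger change of the receptor than of its adaptor was not resolved from the spread between rats.

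**Figure D1:**
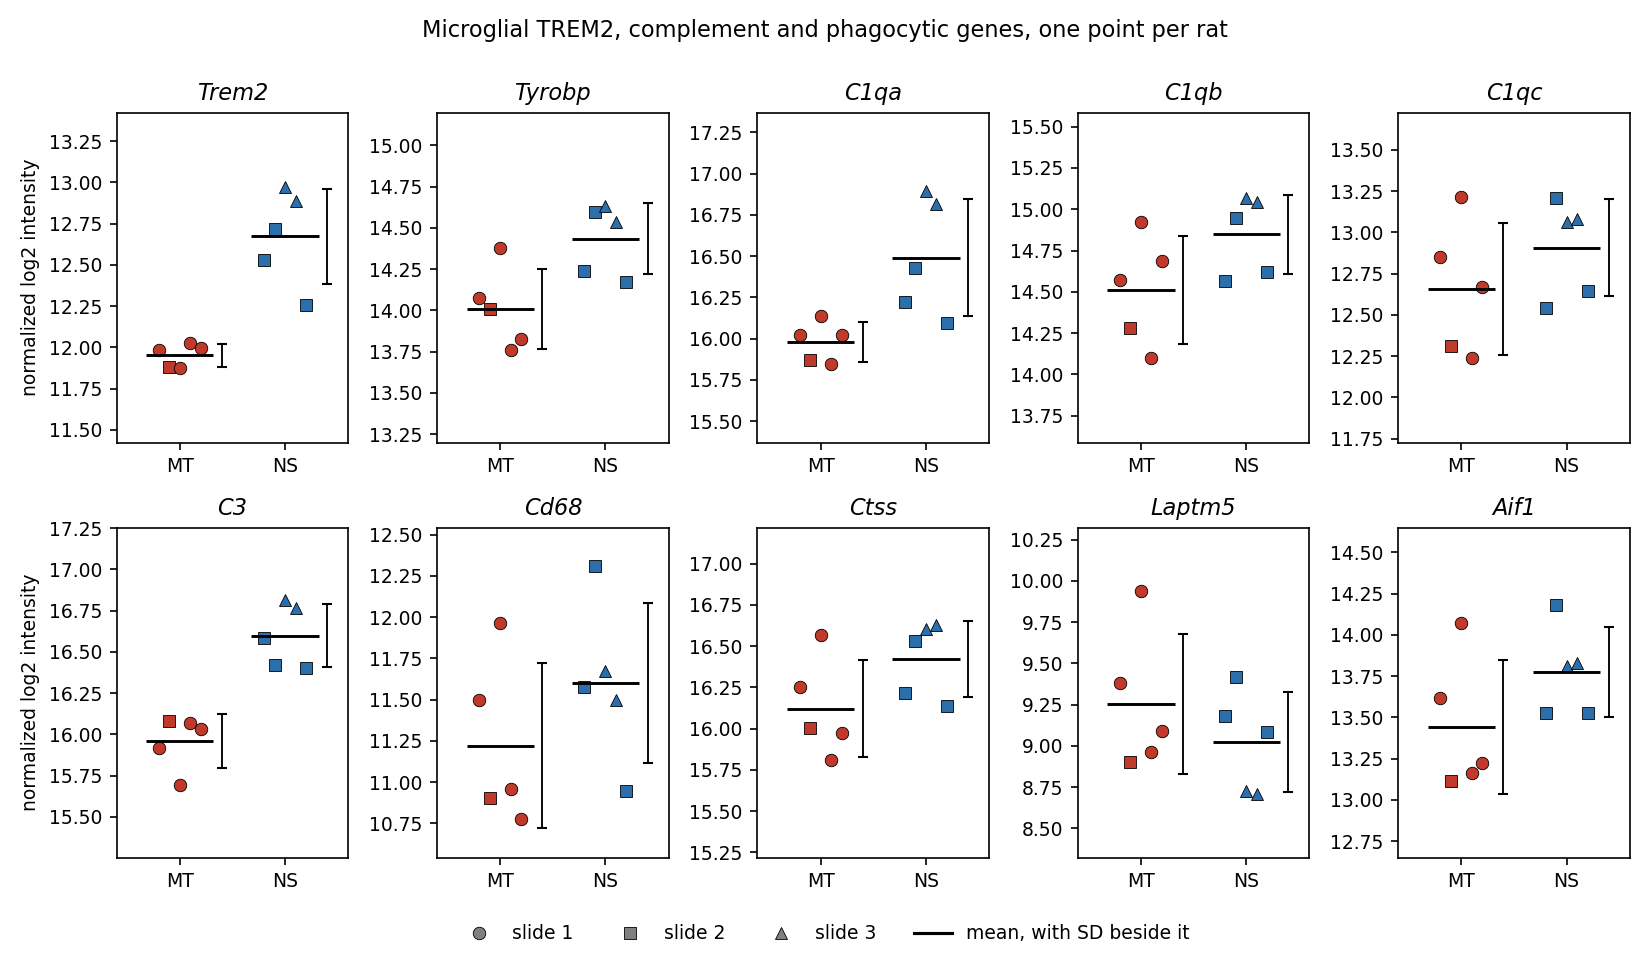
Normalized log2 intensity of each of the 10 genes (vertical axis, a separate range for each gene) in the 5 MT rats (red) and the 5 NS rats (blue), 1 point per rat. The shape gives the slide, the horizontal line the mean, and the bar beside it the SD. Trem2 (MT 11.87 to 12.02, NS 12.26 to 12.97) and C3 (MT 15.69 to 16.08, NS 16.40 to 16.82) are the 2 panels in which the groups do not overlap.

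The 3 chains of C1q were all lower in the MT group, and only C1qa had an unadjusted p below 0.05. C1qb (154402276 to 154407827), C1qc (154410845 to 154414208) and C1qa (154417086 to 154419933) lie side by side on chromosome 5. C1qa read 16.02, 15.87, 16.14, 15.84 and 16.02 in the MT rats and 16.22, 16.43, 16.89, 16.82 and 16.09 in the NS rats. One MT rat, rat 3, lay above NS rat 10, and NS rats 8 and 9 of slide 3 were the highest of all. For C1qa the difference was -0.51 (standard error 0.16, adjusted p = 0.176, exact permutation p = 0.0159).

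For C1qb the MT rats read 14.57, 14.28, 14.92, 14.10 and 14.69 and the NS rats 14.57, 14.95, 15.07, 15.04 and 14.62. The difference of -0.34 (standard error 0.17, adjusted p = 0.354) was about the size of the SD in the MT group, 0.33. For C1qc the MT rats read 12.85, 12.31, 13.21, 12.24 and 12.67, and the NS rats read 12.54, 13.21, 13.06, 13.08 and 12.64. The highest MT and the highest NS rat were level, and the difference was -0.25 (standard error 0.20, adjusted p = 0.562).

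C3, the protein on which the complement pathways converge, was the second member without overlap. On chromosome 9 (2174412 to 2201339), it read 15.92, 16.08, 15.69, 16.07 and 16.04 in the MT rats and 16.59, 16.42, 16.82, 16.77 and 16.40 in the NS rats. Every MT rat lay at least as low as 16.08 and every NS rat at 16.40 or more. The means were 15.96 ± 0.16 in MT and 16.60 ± 0.19 in NS (SD, n = 5 each), and the difference was -0.64 (standard error 0.11, adjusted p = 0.0600, exact permutation p = 0.00794). Within each array, log2 C3 minus the mean of the 3 C1q chains was 1.58 ± 0.43 in MT and 1.85 ± 0.22 in NS (SD, n = 5 each), with overlap.

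Among the phagocytic and lysosomal genes none had an unadjusted p below 0.05. Cd68, on chromosome 10 (54880562 to 54882441), read 11.50, 10.91, 11.96, 10.96 and 10.78 in the MT rats and 11.57, 12.31, 11.67, 11.50 and 10.95 in the NS rats. It had the widest spread of the members, with an SD of 0.50 in MT and 0.49 in NS, and the difference of -0.38 was smaller than either (standard error 0.28, adjusted p = 0.528). Ctss, on chromosome 2 (185775316 to 185803440), read 16.25, 16.00, 16.57, 15.81 and 15.97 in the MT rats and 16.22, 16.53, 16.60, 16.62 and 16.14 in the NS rats. The 2 highest MT rats, 3 and 1, reached into the NS range, and the difference was -0.30 (standard error 0.16, adjusted p = 0.370).

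Laptm5, on chromosome 5 (148371880 to 148393927), was the only member with a higher mean in the MT group. It read 9.38, 8.90, 9.94, 8.96 and 9.09 in the MT rats and 9.18, 9.42, 8.73, 8.71 and 9.09 in the NS rats. NS rats 8 and 9 of slide 3 were the lowest of the 10, and the difference was 0.23 (standard error 0.21, adjusted p = 0.616). Without these 2 rats it was 0.03. On slide 2 alone MT rat 2, the lowest MT rat for this gene, lay 0.32 below the NS mean. Slide and rat cannot be told apart in that value.

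Aif1, on chromosome 20 (3651435 to 3657341), read 13.62, 13.12, 14.07, 13.16 and 13.22 in the MT rats and 13.52, 14.18, 13.81, 13.83 and 13.52 in the NS rats. MT rats 2, 4 and 5 lay below every NS rat, MT rat 1 lay above the lower 2, and MT rat 3 was second only to NS rat 7. The difference of -0.34 was smaller than the MT SD of 0.41 (standard error 0.20, adjusted p = 0.433). Relative to Aif1 within each array, Trem2 was at -1.49 ± 0.44 in MT and -1.101 ± 0.26 in NS and Cd68 at -2.22 ± 0.14 in MT and -2.17 ± 0.29 in NS (SD, n = 5 each), with overlap in both cases.

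Over the 10 genes the median log2 fold change was -0.36, against -0.02 over all mRNA transcripts tested, of which 53.2% had a negative value. Trem2, Tyrobp, C1qa and C3, 4 of the 10, were lower with an unadjusted limma p below 0.05, as were 10.4% of all mRNA transcripts. With an adjusted p below 0.05 the count was 0 of 10, and it was also 0 of 10 by the methods' t-test after Benjamini-Hochberg adjustment. Of all mRNA transcripts 0.232% passed in either direction and 0.135% as lower in MT. The criteria of the study are printed in its methods as a log2 fold change above 1.5 and in its captions as a fold above 1.5. Taken on the linear scale, above 1.5-fold and with P below 0.05 before adjustment, they were met by Trem2 and C3, 2 of 10, against 0.987% of all mRNA transcripts as lower and 1.62% as higher in MT. Both were also the 2 of 10 without overlap, with MT below NS, which held for 3.49% of all mRNA transcripts, and for 5.75% in either direction.

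The size of these differences changed with the slides that were included. Slide and rat cannot be told apart in this, since slide 3 held only NS rats 8 and 9. For 8 of the 10 genes the NS rats of slide 3 had a higher mean than those of slide 2, by up to 0.61 for C1qa and by 0.43 for Trem2 and 0.32 for C3 on the log2 scale, while Cd68 was 0.03 and Laptm5 0.51 lower there. Without slide 3 the log2 fold change was -0.55 for Trem2 (limma adjusted p = 0.149) and -0.51 for C3 (adjusted p = 0.166), and 0 members met the study's criteria, although both genes then still separated the groups. C1qa shifted most, to -0.27 (adjusted p = 0.236). On slide 2 alone, MT rat 2 read below each of the 3 NS rats for 10 of 10 genes, which was so for 23.5% of all mRNA transcripts, but this is 1 rat, and the 10 values share its array.

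Within slide 2 the difference between MT rat 2 and the NS mean was -0.62 for Trem2, -0.33 for Tyrobp, -0.38 for C1qa and -0.39 for C3. It was -0.43 for C1qb, -0.49 for C1qc, -0.70 for Cd68 and -0.63 for Aif1, for which the sizes were larger than between the full groups, and -0.29 for Ctss. Fitting the slide as a fixed block in limma takes its group difference from these 4 arrays, and its adjusted p was 0.841 for Trem2 and 1.00 for the other 9 genes. How much of the difference between the groups came from the slides was not tested further.

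**Figure D2:**
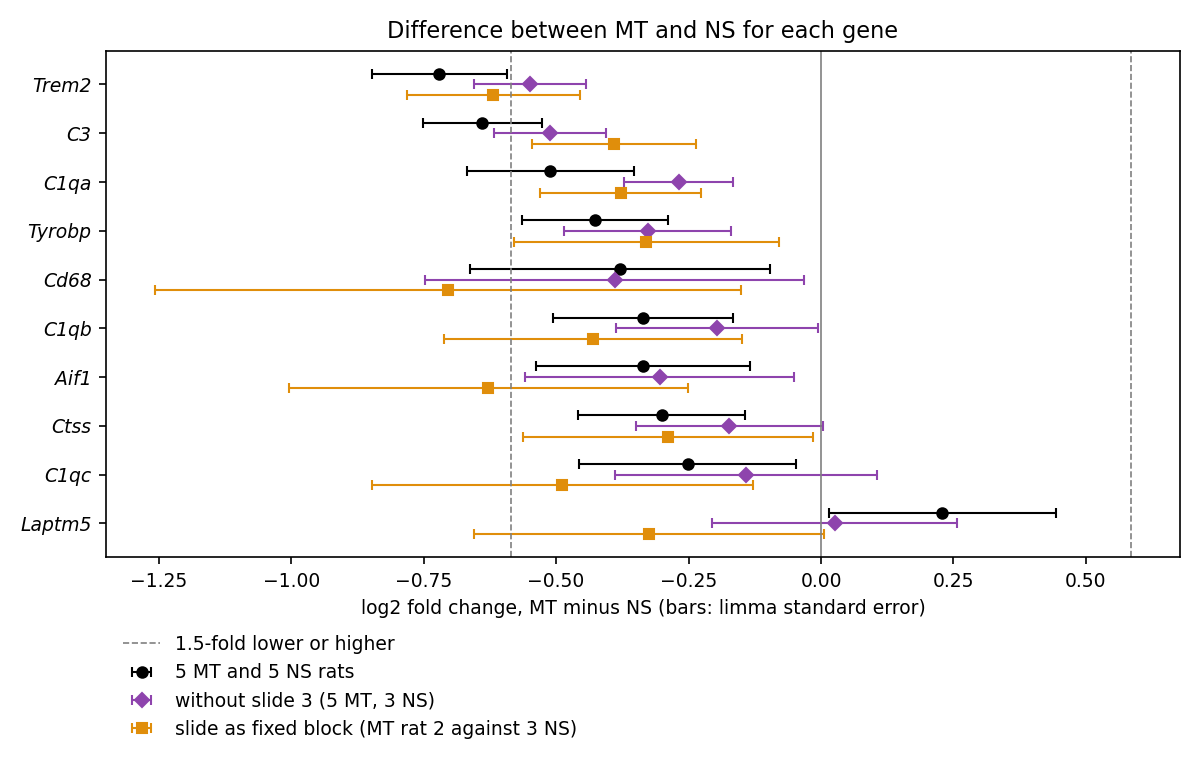
Log2 fold change of each gene (MT minus NS, horizontal axis, bars are the limma standard error) over all 10 rats (black), without slide 3 (purple) and with the slide as a fixed block (orange). The dashed lines mark 1.5-fold. Trem2 moved from -0.72 to -0.55 without slide 3 and to -0.62 with the block, C3 from -0.64 to -0.51 and -0.39, and Laptm5 crossed from 0.23 to -0.32 with the block.

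The scaling of the arrays also mattered for the raw signal. Before normalization the Trem2 spot read 4560, 4150, 3640, 5360 and 4220 in the MT rats and 7990, 7450, 6360, 4260 and 4660 in the NS rats. The C3 spot read 71700, 79800, 59700, 90100 and 76100 in the MT rats and 120000, 97000, 63700, 55000 and 93400 in the NS rats. Of the unscaled NS values, those of rats 9 and 10 fell into the MT range for Trem2, while for C3 rat 8 fell into it and rat 9 below it. After scaling by the 75th percentile of each array instead of quantiles, both genes again separated the groups, Trem2 at 2.06 to 2.35 in MT and 2.60 to 3.27 in NS and C3 at 6.09 to 6.47 and 6.60 to 6.93, in log2 units above that percentile.

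The members did not all vary together between rats of 1 group. MT rat 3 was the highest MT rat for 8 of the 10 genes, among them Cd68 at 11.96, Laptm5 at 9.94 and Aif1 at 14.07, and yet the lowest MT rat for the other 2, Trem2 at 11.87 and C3 at 15.69. MT rat 4 was the lowest of its group for 5 genes. In the NS group rat 8 was the highest for 5 genes and rat 7 for 4, and rat 10 was the lowest for 7. Without MT rat 3 the median difference of the members was -0.51. It was -0.70 for Trem2, -0.52 for Tyrobp, -0.55 for C1qa, -0.44 for C1qb, -0.39 for C1qc and -0.57 for C3. For the others it was -0.56 for Cd68, -0.41 for Ctss, -0.49 for Aif1 and 0.06 for Laptm5. In these 9 rats MT lay below NS without overlap for 4 members, Tyrobp and C1qa joining Trem2 and C3, against 4.59% of all mRNA transcripts. With an unadjusted p below 0.05 there were 7 lower, against 9.74%, and with an adjusted p below 0.05 there were 0, against 0.0748%. Only 1 member, Trem2, then met the study's criteria as lower, against 1.31%, since C3 no longer reached 1.5-fold.

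**Figure D3:**
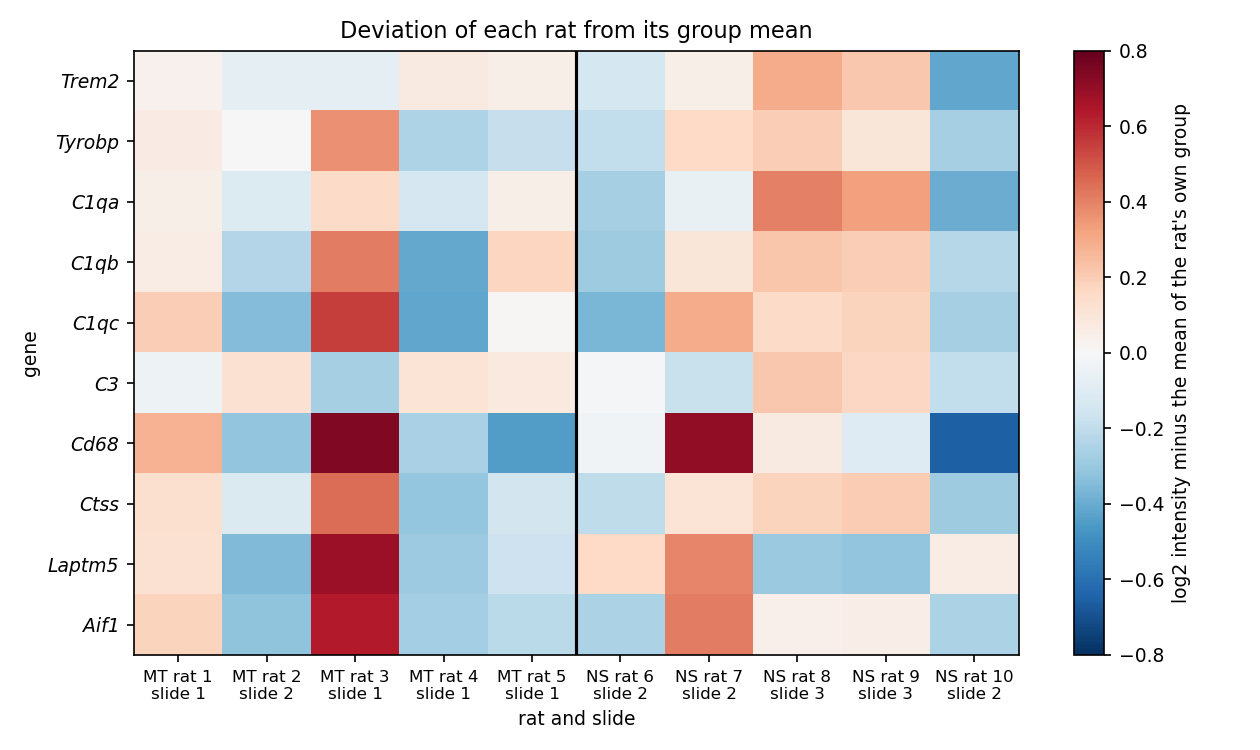
Deviation of each rat from the mean of its own group for each gene, in log2 units (colour), with the MT rats left and the NS rats right of the line and the slide under each rat. MT rat 3 is above its group for 8 genes and below it for Trem2 and C3. NS rat 10 is below its group for 9 genes, and NS rats 8 and 9 are below it for Laptm5.

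Genes around the receptor, from a list of TREM2 signalling without the members, were mostly lower in MT as well, by small differences. Of 14 genes tested 12 were lower and 2 higher in MT, with a median log2 fold change of -0.31. None met the study's criteria or had an adjusted p below 0.05. Only 2 had an unadjusted p below 0.05, both lower, against 10.4% of all mRNA transcripts as lower. These 2 were Lyn, a Src family kinase, at -0.55 (standard error 0.24, adjusted p = 0.303), and Plcg2, a phospholipase downstream of SYK, at -0.27 (standard error 0.07, adjusted p = 0.153). Syk itself was at -0.12 (adjusted p = 0.479), and Spi1, which encodes PU.1, was at -0.40 (adjusted p = 0.316). Within slide 2 the difference of Spi1 was -0.26. The TREM2 ligands Apoe and Clu were at 0.08 and 0.21, with adjusted p of 0.773 and 0.539, and within slide 2 at -0.14 and -0.13. Without MT rat 3 the list's median was -0.45, with 13 lower and 1 higher, of which 8 were lower with an unadjusted p below 0.05 and 2 met the criteria. Of all mRNA transcripts 9.74% and 1.31% did so as lower without that rat.

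Of 42 further complement genes 27 were tested, on 28 transcripts, of which 11 were higher and 17 lower, with a median of -0.10. With an unadjusted p below 0.05 there were 3 higher and 3 lower, and 0 with an adjusted p below 0.05. Over all mRNA transcripts 16.8% had an unadjusted p below 0.05 in either direction and 10.4% as lower. As higher, 1.62% of them met the study's criteria. The study's criteria were met by 2, both higher: Cfd, or factor D, of the alternative pathway, at 0.72 (standard error 0.23, adjusted p = 0.186), and C9, a subunit of the membrane attack complex, at 0.74 (standard error 0.31, adjusted p = 0.279), a dim probe that was well above background on 8 of 10 arrays. NS rats 8 and 9 of slide 3 were at 2.88 and 2.87 for C9, and without them the difference was 0.26 and the criteria were no longer met, nor were they within slide 2, at 0.23. With the slide block Cfd stood at 0.77 and did not meet the criteria either. Larger differences with wide errors were those of Cfb at -0.94 (standard error 0.51, adjusted p = 0.382) and of the near-identical C4b and C4a at -0.68 and -0.55 (adjusted p of 0.338 and 0.425), whose probes may not tell the copies apart. Within slide 2 these were larger, at -1.55 for Cfb, -1.15 for C4b and -1.04 for C4a. The receptor of the C3a fragment, C3ar1, was at -0.03 (adjusted p = 0.949), and at -0.53 within slide 2. Without MT rat 3 the list's median was -0.15, and 1 transcript met the criteria as higher and 4 as lower. Of all mRNA transcripts 1.31% met them as lower without that rat.

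Phagocytosis genes without the members (22 tested of 31, on 24 transcripts) had a median of -0.04, with 8 higher and 16 lower. Of these 2 were higher and 2 lower with an unadjusted p below 0.05. Over all mRNA transcripts the shares were 16.8% in either direction and 10.4% as lower, and 1.62% met the study's criteria as higher. The study's criteria were met by 1, Cd14, a co-receptor for bacterial lipopolysaccharide, which was higher, 9.64 to 10.64 in MT and 8.50 to 9.47 in NS without overlap (difference 1.095, standard error 0.23, adjusted p = 0.0899). Lower with an unadjusted p below 0.05 were Fcer1g, the signalling chain of Fc receptors, at -0.42 (adjusted p = 0.258), and Pros1, a bridging ligand for the uptake of dying cells, at -0.28 (adjusted p = 0.207), which was -0.09 within slide 2. Without MT rat 3 the median was -0.07, and 5 were lower and 1 higher with an unadjusted p below 0.05. Of all mRNA transcripts 9.74% were lower at that threshold without that rat.

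Lysosome genes (21 tested of 26, on 22 transcripts) had a median of -0.11, with 4 higher and 18 lower. With an unadjusted p below 0.05 there were 1 higher and 4 lower. Over all mRNA transcripts 53.2% had a negative value, and 16.8% had such a p in either direction and 10.4% as lower. Npc2, a lysosomal cholesterol carrier, was at -0.34 (standard error 0.08, adjusted p = 0.121), without overlap, and at -0.18 within slide 2. Lyz2, or lysozyme, a product of monocytes, neutrophils and activated microglia, was higher, 15.68 to 16.30 in MT and 14.86 to 15.66 in NS (difference 0.77, standard error 0.18, adjusted p = 0.106), and at 0.58 within slide 2 it did not meet the criteria. Lyz2 was also the only one of 19 genes of the disease-associated microglia list, on 23 transcripts, to meet the study's criteria. That list, which holds genes induced in microglia around plaques and dying cells, had a median of -0.04, with 10 higher and 13 lower. In it 1 transcript had an unadjusted p below 0.05, against 16.8% of all mRNA transcripts in either direction, of which 2.6% met the criteria.

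**Figure D4:**
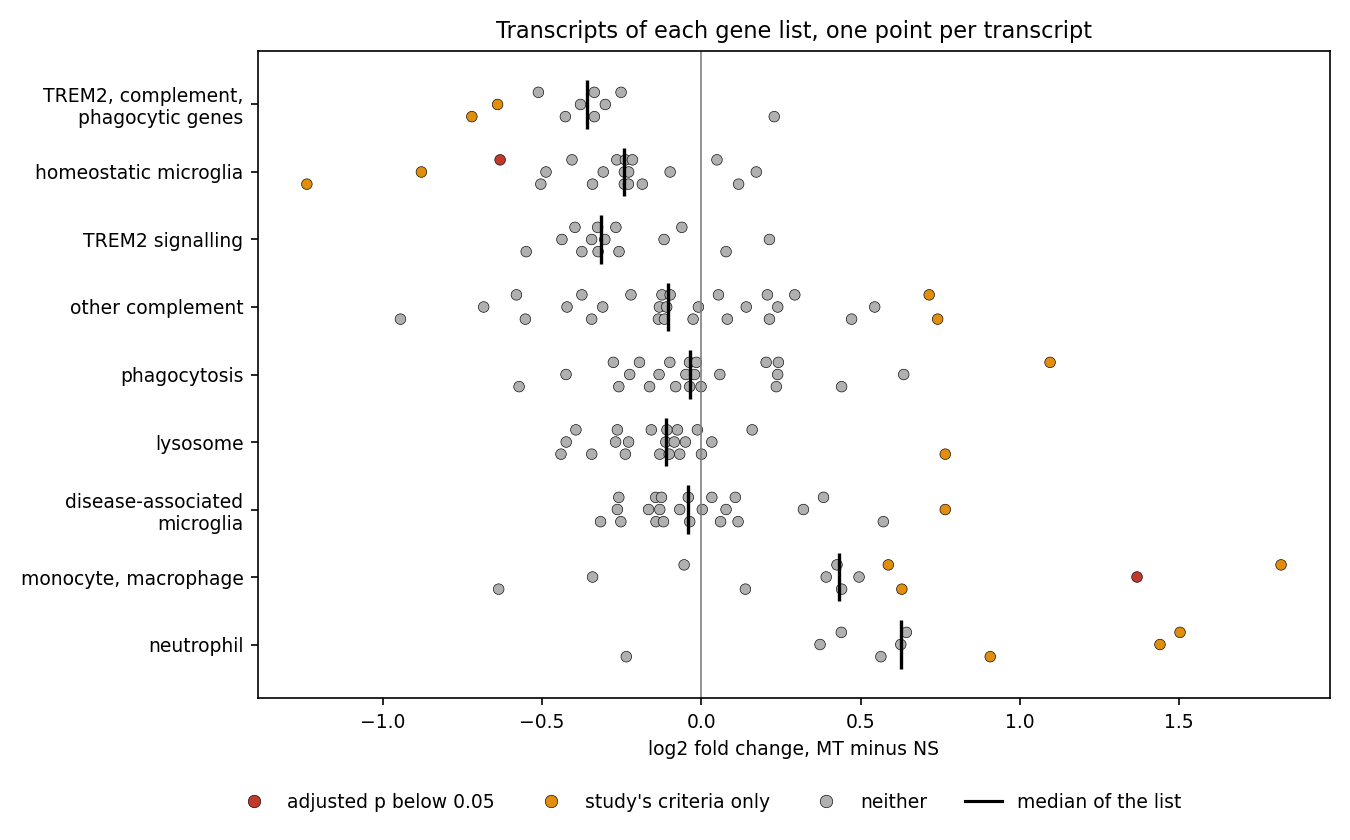
Log2 fold change (MT minus NS, horizontal axis) of each transcript tested in 9 gene lists, 1 point per transcript, with the median of each list as a black line. Red points had an adjusted p below 0.05, and orange points met the study's criteria only. The median was -0.36 for the 10 TREM2, complement and phagocytic genes, -0.31 for TREM2 signalling, -0.24 for homeostatic microglia, 0.43 for monocytes and macrophages and 0.63 for neutrophils.

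Markers of resting, or homeostatic, microglia were lower in MT too. Of 20 transcripts of 16 genes 17 were lower in MT and 3 higher, with a median of -0.24. Several of the 20 were transcripts of 1 gene, Ptprc, with like values of -0.23 to -0.27, and the median fell among them. With an unadjusted p below 0.05 there were 10 lower and 0 higher, against 10.4% of all mRNA transcripts as lower. For 6 of the 20 the groups did not overlap, with MT below NS, against 3.49% of all mRNA transcripts. Gpr34, a receptor of microglia, read 10.47, 10.47, 10.29, 10.52 and 10.63 in the MT rats and 11.02, 11.05, 11.31, 11.20 and 10.95 in the NS rats, and was the 1 transcript of the list with an adjusted p below 0.05, at -0.63 (standard error 0.09, adjusted p = 0.0414). That call did not last without MT rat 3 (-0.58, adjusted p = 0.0703) or with the slide block (-0.53, adjusted p = 0.726), and without slide 3 the difference was -0.53. Tmem119, a microglial membrane protein that the study chose for RT-qPCR from these arrays, read 11.38 to 12.08 in MT and 12.31 to 13.22 in NS, at -1.24 (standard error 0.21, adjusted p = 0.0555). The study reports that its RT-qPCR also gave a lower level of Tmem119 in MT, with a significant difference. Slc2a5, a fructose transporter, was at -0.88 (standard error 0.18, adjusted p = 0.0892). P2ry12, which senses ADP released from injured cells, was at -0.18 (adjusted p = 0.259), although its groups did not overlap. Without MT rat 3 the median of the list was -0.37, with 18 lower and 2 higher.

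The summed linear signal of the homeostatic list was 76020 to 88980 in MT and 84050 to 119900 in NS, and that of the 10 members was 237300 to 309600 in MT and 297700 to 430900 in NS. No gene of the homeostatic list with a probe was below the filter. Genes of the monocyte and macrophage list and of the neutrophil list were mostly higher in MT. The monocyte and macrophage list (12 tested of 16) had a median of 0.43, with 9 higher and 3 lower. Ccr1, a chemokine receptor, was at 1.37 (standard error 0.17, limma adjusted p = 0.0287), and at 1.51 with the slide block. The 3 lower genes were Ccr2 at -0.05, Plac8 at -0.34 and Cd74 at -0.64. Within slide 2 these were at -0.01, -0.53 and -1.15. The summed signal of the list was 14850 to 38730 in MT and 11370 to 27180 in NS, with Cd163 below the filter. Which cells these RNAs came from was not tested. The neutrophil list (9 tested of 17) had a median of 0.63, with 8 higher and 1 lower. For 3 of the 9, S100a8, Csf3r and Camp, the groups did not overlap, with MT higher, and for 0 with MT lower. Among all mRNA transcripts 5.75% did not overlap in either direction, and 3.49% with MT below NS. The summed signal of 3643 to 5588 in MT and 3188 to 6201 in NS overlapped, with Mmp8, Fpr1 and Ltf below the filter. That sum was mostly Lcn2, the 1 lower gene, with means of 11.80 in MT and 12.04 in NS. Its difference was -0.24, and -0.14 within slide 2. Csf3r, the next brightest, had means of 8.50 and 7.59, so the sum says little about the 8 higher genes. What share of the members' signal came from neutrophils, monocytes or macrophages was not tested.

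Of the lists of other cells, 6 had a median near 0. The median log2 fold change was -0.02 for astrocyte markers, 0.02 for oligodendrocyte markers, 0.00 for neuron markers, -0.03 for endothelial markers, -0.04 for erythrocyte markers and -0.01 for B and T cell markers. Single transcripts differed more. Of 13 neuron transcripts 4 were higher and 0 lower with an unadjusted p below 0.05. Without overlap, 3 had MT above NS and 0 had MT below NS. Over all mRNA transcripts the shares were 16.8% and 5.75% in either direction, of which 10.4% and 3.49% were as lower in MT. The shares as higher alone are thus well under those in either direction. Lower with an unadjusted p below 0.05 were 2 of 9 astrocyte, 1 of 13 oligodendrocyte and 1 of 9 B and T cell transcripts, against 10.4%. In the B and T cell list 1 transcript met the study's criteria, as lower. For another 3 lists it was about as large as for the homeostatic list, but positive, at 0.28 for dorsal root ganglion markers, 0.25 for meningeal fibroblast markers and 0.32 for the 2 lumbar Hox genes. In these 3 lists only 3 transcripts of Calca met the study's criteria, as higher, and they did not with the slide block or without slide 3. Without MT rat 3 the medians were 0.42, 0.29 and 1.12, and that of the B and T cell list was -0.35. The summed signal of the astrocyte list, a second source of C3 in nervous tissue, was 365300 to 395200 in MT and 343100 to 411600 in NS.

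Each rat's mean z-score over the 10 genes was taken as their common level, to find the mRNAs most like it over the 10 arrays, among 12447 transcripts. With the slide means taken out, those among the 5 closest that are reported here were Abi3 (r = 0.988, rho = 0.988), Rnf166 (r = 0.988, rho = 1.00), Blnk (r = 0.987, rho = 1.00) and Dapp1 (r = 0.986, rho = 0.976). With the slide means kept they were Gpr160 (r = 0.996), Dapp1 (r = 0.993), Blnk (r = 0.981), then Ctla2a and Ptafr. Blnk and Dapp1 were in both sets, at log2 fold changes of -0.54 (adjusted p = 0.156) and -0.61 (adjusted p = 0.247). The 10 arrays and the normalization are shared by all of these genes, and the values describe likeness only.

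The common level itself overlapped between the groups. The mean z-score was -0.21, -0.97, 0.51, -1.12 and -0.70 in MT rats 1 to 5 and 0.04, 1.00, 0.91, 0.80 and -0.27 in NS rats 6 to 10. MT rat 3 lay above NS rats 6 and 10, and the other 4 MT rats included 1, rat 1, that lay above NS rat 10. The separation of Trem2 and C3 was thus not shared by the mean of the 10 genes.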

How the data were processed

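Total RNA of the lumbar spinal cord of 5 MT and 5 NS rats had been hybridized to one-colour rat lncRNA arrays. The authors deposited, for each array, background-subtracted spot intensity values from Agilent Feature Extraction 11.0.1.1, and a single sheet of quantile-normalized log2 values that the authors made from the same arrays (24484 of its 24529 rows matched a probe, column medians 6.82 to 6.83, r of 0.996 to 1 with the values used here). The groups came from the labels.

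From the spot values, intensities under 1 would have been set to 1 (the lowest was 1.71), log2 values were quantile normalized, outlier spots were left out and each RNA was given the mean over its spots and probes. The filter asked that over 50% of a probe's spots lie well above background on 5 or more arrays. MT was compared with NS by limma (version 3.58.1, R 4.3.3, files read by the data.table package, version 1.17.8), with Benjamini-Hochberg adjustment over all 20284 RNAs. Exact permutation tests used the 252 assignments of 5 and 5 rats. The criteria of the study were taken on the linear scale, a fold above 1.5 (0.585 in log2) with an unadjusted P below 0.05. Symbols, positions and promoters came from RefSeq (GRCr8), which named 14274 of 15323 mRNA probes. Positions are those of genes, not of probes, and isoforms were not told apart.

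The members and the gene lists (TREM2 signalling, disease-associated microglia, complement, phagocytosis, lysosome, homeostatic microglia, neutrophil, monocyte and macrophage, B and T cell, erythrocyte, astrocyte, oligodendrocyte, neuron, endothelial, dorsal root ganglion, meningeal fibroblast and lumbar Hox) were chosen with earlier results of these data known. A gene may stand in several lists, and members were left out of the others. Named by rule were all 10 members, up to 4 genes of each of the first 6 lists with an adjusted p below 0.05 or, failing that, meeting the study's criteria, and the 5 mRNAs closest to the members' mean z-score with and without the slide means. Any other gene was named with its values known, and some genes that the rule or the lists hold are not reported here by name.

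The alternatives were 75th percentile scaling, normexp (offset 50, on the median signals, since the arrays have no mean signal), the deposited table, no filter or a filter on all 10 arrays, the methods' t-test, weights for the arrays, a trend in the variance, slides as a fixed or a random block, leaving out slide 3, keeping outlier spots, the brightest probe, and leaving out each rat. The number of arrays limits the precision. The steps were tested on simulated data, with matplotlib 3.10.9 (Python 3.11.15) for the figures.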

Additional observations from a re-analysis of the deposited data

Results flagged for a closer look

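Hoxa11, a Hox gene of the caudal cord, read 4.41 in MT rat 3, and the gap to the next MT rat was 0.826 of the range of the 5 MT rats, above the critical value of 0.71 for 5 samples. It was well above background on 10 of 10 arrays. Of the 88 groups of 5 rats examined, over genes named in the text, this was the 1 that stood out, and chance alone marks about 5% of such groups.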

How the results depend on the processing

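Over 23 alternatives Trem2, Tyrobp, the 3 C1q chains, C3, Cd68, Ctss and Aif1 were lower in MT in all 23. Not all of these could change a direction. The 2 filter settings, the t-test, the variance trend, kept outlier spots and the brightest probe left each member's fold change as it was. Trem2 stayed at -0.72 and C3 at -0.64 under them, so the counts out of 23 overstate how far the differences were tried. Trem2 met the study's criteria in 21 of 23, with adjusted p from 0.0250 to 0.841, C3 in 16 of 23, with adjusted p from 0.0276 to 1.00, and C1qa in 1. Laptm5 was higher in 21 and reversed to -0.32 with the slide as a fixed block and to -0.0065 with it as a random block, so that 0 members were higher in MT under either. Members with an adjusted p below 0.05 numbered 0 in the reported fit and 2, Trem2 and C3, with normexp, a filter on all arrays, a variance trend or array weights. Shares of calls over all transcripts were counted for the reported fit and without MT rat 3, and not for the other alternatives. The counts of members under those alternatives therefore have no share to be set against. Members meeting the study's criteria numbered 2, then 1 with 75th percentile scaling or with either slide block, and 0 with array weights or without slide 3. Transcripts of the pathway lists meeting the criteria numbered 4, then 8 with 75th percentile scaling, 7 with array weights and 2 with the fixed block, and 1 (Cd14, 1.02, adjusted p = 0.0474) had an adjusted p below 0.05 with normexp against 0 otherwise. The cause was not tested.

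Leaving out each rat in turn gave 0 to 1 members with an adjusted p below 0.05 (1, Trem2 at -0.82 with adjusted p = 0.0282, without NS rat 10), 1 to 3 meeting the criteria (1 without MT rat 3 or NS rat 8, 3 without NS rat 10), 2 to 4 without overlap (4 without MT rat 3, 3 without NS rat 10), 1 to 1 higher in MT, and for the pathway lists 0 to 0 with an adjusted p below 0.05 and 3 to 11 meeting the criteria (11 without MT rat 3, 8 without NS rat 10). No paired analysis was possible because the rats are numbered 1 to 10 and the groups share no replicate number. The weak signal of slide 3 and the split of the groups over slides limit every difference.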
